A study of Homo sapiens with 9 samples.

Results

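The proteasome subunit genes are the 48 protein-coding genes whose symbol is PSMA, PSMB, PSMC, PSMD, PSME, PSMF or PSMG followed by a number and nothing else, out of 61487 genes in the count table. The rule uses names only and no measured value. Their transcripts were counted by RNA-seq in 9 libraries of OVCAR4, a cell line that stands for high-grade serous ovarian carcinoma. Naive cells had not been made resistant, and Pt-resistant cells are a derivative of them selected under platinum. Each was cultured with the vehicle DMSO (3 libraries a group), and Pt-resistant cells were also cultured for 5 days with 5 µM EPZ015666 (3 libraries), a drug that blocks the arginine methyltransferase PRMT5. All libraries thus come from a single cell line and a single resistant derivative, both labelled wild type, and no naive cells received the inhibitor. The design asks which genes differ with platinum resistance and which depend on PRMT5 activity in resistant cells.

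The proteasome degrades proteins tagged with ubiquitin. Its barrel, the 20S core, stacks alpha rings, which gate the entrance, on beta rings, which hold the catalytic sites. The 19S cap binds ubiquitin chains, removes them, unfolds the substrate with a ring of ATPases and feeds it into the core. In immune cells and under interferon, PSMB8, PSMB9 and PSMB10 replace the constitutive catalytic subunits PSMB5, PSMB6 and PSMB7, which forms the immunoproteasome and changes the peptides made for display on MHC class I. When proteasome activity falls, the transcription factor NRF1, product of NFE2L1, raises most subunit genes together, and cancer cells, with their high load of misfolded protein, are known to lean on this supply.

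By role, the genes were grouped into 7 alpha ring genes (PSMA1 to PSMA7), 4 structural beta genes (PSMB1 to PSMB4) and 3 constitutive catalytic genes (PSMB5 to PSMB7), together 14 genes of the constitutive core, and the 3 immunoproteasome genes. The 19S cap comprised 17 genes, with 6 ATPases (PSMC1 to PSMC6), 3 other base genes (PSMD1, PSMD2, PSMD4) and 8 lid genes. Assembly chaperones of the core (PSMG1 to PSMG4, 4 genes) and of the cap (PSMD5, PSMD9 and PSMD10, 3 genes), 4 activators (PSME1 to PSME4), the inhibitor PSMF1 and 2 core subunits restricted to single tissues (PSMA8 in testis, PSMB11 in thymus) made up the rest. PSMA8 had no count in any library and PSMB11 had 2 counts in all 9 libraries together, so both fell under the filter on low counts and 46 members were tested among 14630 genes. Of these 46, PSMB9 passed the filter through the EPZ015666-treated libraries, where 3 of 3 reached the cutoff of 0.589 CPM against 1 of 3 Pt-resistant and 0 of 3 naive libraries. PSMA2 passed with 2 Pt-resistant libraries and 1 naive library over the cutoff.

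Total counts ran from 14320929 to 19114811 per library, and the proteasome genes took 0.61% ± 0.0221 (SD, n = 3) of them in naive, 0.731% ± 0.034 in Pt-resistant and 0.693% ± 0.0256 in EPZ015666-treated libraries. The 3 libraries of a group came from separate wells, so the tests weigh differences against well-to-well variation, which may be technical only. Replicates of a group differed by more than counting noise (chi-square per degree of freedom 5.41 to 11.9), so none was a duplicate. Of the markers of serous ovarian epithelium, 9 genes, the summed level lay at 4158 to 4448 CPM in naive, 4004 to 4125 in Pt-resistant and 3274 to 3338 in EPZ015666-treated libraries, although WT1 was near 0. KRT7 made up much of this sum, at 1929 CPM in naive and 2333 in Pt-resistant cells, while CDH1, KRT18 and EPCAM were 2.26-fold, 1.64-fold and 1.57-fold lower in Pt-resistant than in naive cells (edgeR adjusted p = 4.46e-11, 8.81e-08 and 3.65e-07). CPM here are counts scaled to the TMM-adjusted library total, and fewer cells of a kind cannot be told apart from less RNA per cell in such bulk data.

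Between members, levels were compared as CPM per kb of annotated exon, averaged over a group. In naive cells the 14 constitutive core genes had a median of 62.1 CPM per kb and the 17 cap genes one of 28.1. The 3 immunoproteasome genes lay far under both, with 0.989 for PSMB8, 0.136 for PSMB9 and 1.87 for PSMB10. Subunits that sit in the particle in equal number still spread widely, from 0.0765 CPM per kb for PSMA2 to 263 for PSMA7 within the alpha ring, and from 0.539 for PSMC1 to 95.9 for PSMC2 among the ATPases. Several of the low values stood at genes that share exon sequence with a neighbour. In the GENCODE 29 annotation, 75.8% of PSMC1 exon length is also exon of NRDE2 on the other strand, 34.6% of PSMA2 is shared with MRPL32 and other genes, 14.1% of PSMA6 and 22.6% of PSMD9 are shared, and PSMB10 shares 34.8% with a gene on the same strand. Other members that share exon length had higher levels, with 42.7 CPM per kb for PSMD7 (30.7% shared), 25.9 for PSMC5 (19.5%), 18.8 for PSMG2 (16.7%) and 11.8 for PSMA1 (24.7%). These shares cover genes on either strand. On the same strand alone, the share was 24.7% for PSMA1, 19.9% for PSMD9, 14.6% for PSMA2, 14.1% for PSMA6 and 0 for PSMC1, PSMD7, PSMC5 and PSMG2. Sharing on the same strand thus occurred at genes with low and with higher levels. The counting mode used by the study leaves out reads that overlap more than 1 gene, and how far that sets these levels was not tested. The strand column is not given, so whether a gene on the other strand took reads out is unknown. Counts of such genes are therefore uncertain as levels.

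**Figure D1:**
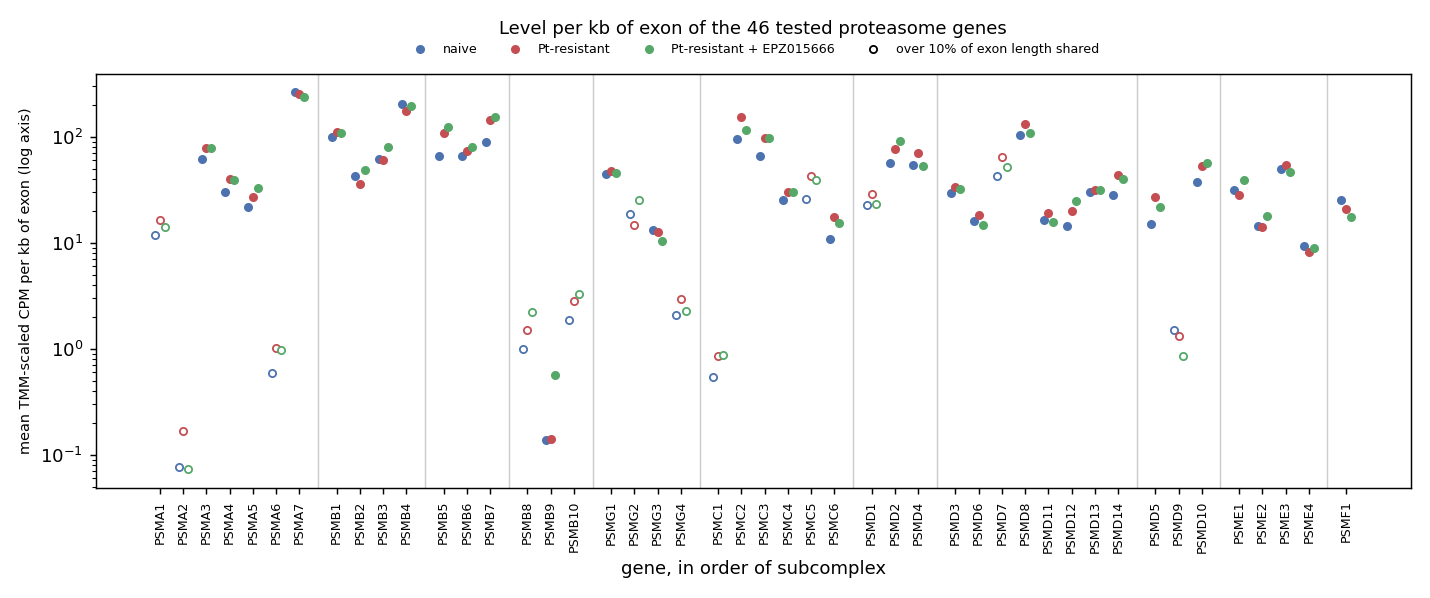
Mean level of each of the 46 tested proteasome genes in TMM-scaled CPM per kb of exon (y axis, log scale) by gene in order of subcomplex (x axis), with 1 point for each group of 3 libraries. Open points are genes that share over 10% of their exon length with another gene, and PSMA2, PSMA6, PSMC1 and PSMD9 stand far below the other genes of their subcomplexes.

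The first comparison asked which proteasome genes differed between Pt-resistant and naive cells. In Pt-resistant cells 28 of the 46 tested members were higher, 4 were lower and 14 did not pass (edgeR quasi-likelihood test, adjusted p under 0.05 over all genes tested). Of all tested genes, 29.8% were higher and 29.4% lower, so the share of lower members was small against the background and that of higher members large. The median log2 fold change was 0.34 over the members and 0.01 over all tested genes. The rise was broad in the 19S cap, where 15 of 17 genes were higher and 0 lower (median 0.44), and mixed in the constitutive core, where 8 of 14 were higher and 2 lower (median 0.33). Of the 46 members, 26 lay above naive cells without overlap of the libraries and 5 below, against 31.2% and 31.3% of all tested genes. Without the 12 members that share over 10% of their exon length with another gene, 18 of 34 were higher and 3 lower. Past a 1.5-fold minimum, 12 members were higher and 0 lower, against 14.3% and 16.4% of all genes. Leaving out Pt-resistant replicate 3 took the lower members from 4 to 2.

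**Figure D2:**
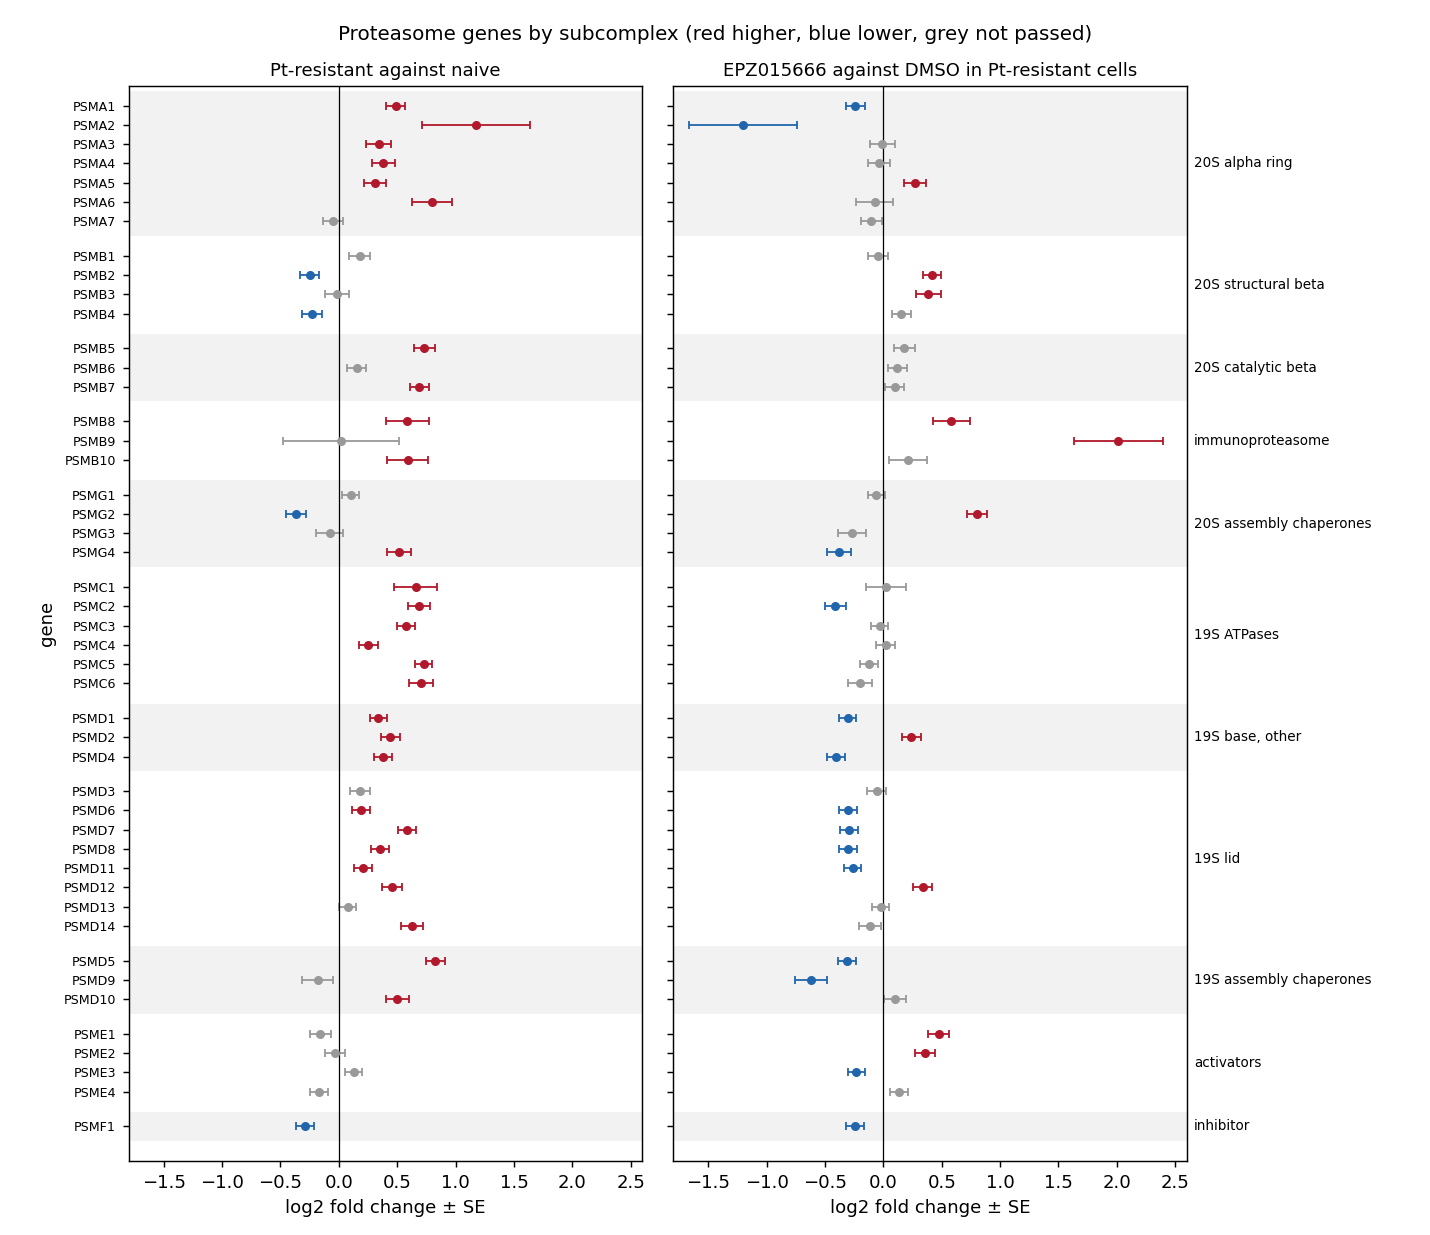
Log2 fold change ± SE (x axis) of each tested proteasome gene (y axis, by subcomplex) in Pt-resistant against naive cells (left) and in EPZ015666-treated against DMSO-treated Pt-resistant cells (right), n = 3 per group. Red points were higher, blue lower and grey points did not pass; all 6 ATPases are red on the left, and 7 of the 17 cap genes are blue on the right.

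Among the 6 ATPases, which unfold substrates and thread them into the core, all were higher in the resistant line (median log2 fold change 0.67). PSMC5 stood at 119.8, 112 and 118 CPM in the naive and 191, 205 and 182 CPM in the Pt-resistant libraries. Every Pt-resistant library was above every naive one (log2 fold change 0.73 ± 0.08 SE, adjusted p = 1.54e-08). PSMC6 rose from 81.3, 75.7 and 86.6 to 111, 148 and 137 CPM, again without overlap (log2 fold change 0.70 ± 0.10 SE, adjusted p = 3.63e-06). PSMC2, the most abundant ATPase transcript per kb, went from 319, 331 and 371 to 467, 620.5 and 555 CPM (log2 fold change 0.69 ± 0.09 SE, adjusted p = 9.77e-07). The smallest rise, that of PSMC4, was 0.25 ± 0.08 SE on the log2 scale with non-overlapping groups, and it did not pass without naive replicate 3 (log2 fold change 0.21, adjusted p = 0.0667) or without Pt-resistant replicate 1 (log2 fold change 0.18, adjusted p = 0.0826).

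All 3 other base genes were higher too. PSMD2, a scaffold that docks shuttle factors, stood at 339.6, 288 and 297 CPM in the naive and 440.2, 437 and 379 CPM in the Pt-resistant libraries, which did not overlap (log2 fold change 0.44 ± 0.08 SE, adjusted p = 6.44e-05). PSMD4, a ubiquitin receptor, rose by 0.38 and PSMD1, the second large scaffold, by 0.34 on the log2 scale (adjusted p = 0.000155 and 0.000389). Of the 8 lid genes 6 were higher. PSMD14, the deubiquitinase that strips chains from the substrate, stood at 206, 205 and 238 and 289, 383 and 329.6 CPM (log2 fold change 0.63 ± 0.09 SE, adjusted p = 4.8e-06), and PSMD7, the subunit it pairs with, at 108, 121 and 121 and 164, 185 and 176 CPM (log2 fold change 0.58 ± 0.08 SE, adjusted p = 8.96e-07). For both, the Pt-resistant libraries were all the higher ones. PSMD12, a lid scaffold subunit, was higher by 0.45 (adjusted p = 4.75e-05), and PSMD8 by 0.35 (adjusted p = 0.000473). PSMD3 (0.18, adjusted p = 0.0597) and PSMD13 (0.08, adjusted p = 0.411) did not pass. The calls of PSMD6 (0.19, adjusted p = 0.037) and PSMD11 (0.21, adjusted p = 0.0217) were each lost when any of 4 single libraries was left out, with the lowest values at log2 fold change 0.14, adjusted p = 0.184 for PSMD6 without Pt-resistant replicate 2 and log2 fold change 0.16, adjusted p = 0.102 for PSMD11 without Pt-resistant replicate 1. The other libraries concerned were naive replicates 1 and 3 and Pt-resistant replicate 3 for PSMD6 (log2 fold change 0.14, adjusted p = 0.168; log2 fold change 0.21, adjusted p = 0.0513; log2 fold change 0.21, adjusted p = 0.0529), and naive replicates 2 and 3 and Pt-resistant replicate 3 for PSMD11 (log2 fold change 0.20, adjusted p = 0.05; log2 fold change 0.19, adjusted p = 0.0683; log2 fold change 0.21, adjusted p = 0.052).

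In the constitutive core the 3 rings of roles differed. Of the 7 alpha ring genes 6 were higher and 0 lower, of the 4 structural beta genes 0 were higher and 2 lower, and of the 3 catalytic genes 2 were higher. PSMB5, the chymotrypsin-like subunit and main target of proteasome inhibitor drugs, stood at 121, 105 and 119 CPM in the naive and 175, 200.4 and 199 CPM in the Pt-resistant libraries. The groups were well apart, and the fold was 1.66 (log2 fold change 0.73 ± 0.09 SE, adjusted p = 1.74e-07). PSMB7, the trypsin-like subunit, stood at 150.4, 154 and 178 and 249, 266 and 264 CPM, likewise apart (log2 fold change 0.69 ± 0.08 SE, adjusted p = 1.24e-07). PSMB6, the caspase-like subunit, stood at 95.4, 92.2 and 100.2 and 110.1, 111 and 98.6 CPM, with 1 Pt-resistant library inside the naive range, and did not pass (log2 fold change 0.15 ± 0.08 SE, adjusted p = 0.102).

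PSMA6 rose from 3.75, 3.23 and 4.54 to 6.25, 7.35 and 6.44 CPM (log2 fold change 0.80 ± 0.17 SE, adjusted p = 0.000293) and PSMA1 from 40.8, 36.2 and 39.6 to 53, 55 and 55.5 CPM (log2 fold change 0.49 ± 0.08 SE, adjusted p = 2.16e-05), both alpha ring subunits and both without overlap. PSMA4 was higher by 0.38 (adjusted p = 0.00145). PSMA2 had the largest fitted value of all members at 1.18 ± 0.46 SE, but on 88 counts in all 9 libraries, with libraries that overlapped (0.227, 0.619 and 0.378 against 0.361, 1.12 and 1.19 CPM), and 4 of the 6 libraries compared each took the call away when left out (log2 fold change 0.87, adjusted p = 0.163 without naive replicate 1; log2 fold change 1.14, adjusted p = 0.0815 without naive replicate 3; log2 fold change 0.99, adjusted p = 0.121 without Pt-resistant replicate 2; log2 fold change 0.91, adjusted p = 0.157 without Pt-resistant replicate 3). It was not called by DESeq2 or limma-voom (adjusted p = 0.145 and 0.0641). The calls of PSMA3 (0.34) and PSMA5 (0.31) were lost without Pt-resistant replicate 2 (log2 fold change 0.19, adjusted p = 0.122 and log2 fold change 0.20, adjusted p = 0.083), and that of PSMA3 also without naive replicate 2 (log2 fold change 0.25, adjusted p = 0.0555). PSMA7, the most abundant member per kb, did not pass (-0.05, adjusted p = 0.653).

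Of the structural beta genes, PSMB2 and PSMB4 were lower, and neither call held with each library left out. PSMB2 stood at 219, 196 and 210.1 CPM in the naive and 184, 179 and 163 CPM in the Pt-resistant libraries, all of the latter lower (log2 fold change -0.25 ± 0.08 SE, adjusted p = 0.00826), although the call did not hold without Pt-resistant replicate 3 (log2 fold change -0.20, adjusted p = 0.0592). PSMB4 stood at 466, 395 and 474 and 366, 409 and 366 CPM, overlapping by 1 library (log2 fold change -0.23 ± 0.08 SE, adjusted p = 0.0244). Its call was lost when naive replicate 1 or 3 or Pt-resistant replicate 1 or 3 was left out (log2 fold change -0.19, adjusted p = 0.0883; log2 fold change -0.18, adjusted p = 0.116; log2 fold change -0.21, adjusted p = 0.0577; log2 fold change -0.20, adjusted p = 0.0872). PSMB1 (0.18) and PSMB3 (-0.02) did not pass (adjusted p = 0.0808 and 0.896), and PSMB1 was called higher without naive replicate 3 (log2 fold change 0.23, adjusted p = 0.046).

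Chaperones that build the particle were split. PSMD5, which holds ATPases before the cap is complete, had the largest rise among members above 10 CPM, from 61.9, 72.1 and 67.2 to 116, 119 and 122 CPM with wide separation (log2 fold change 0.83 ± 0.08 SE, adjusted p = 4.32e-09). PSMD10, also known as gankyrin, rose by 0.50 (adjusted p = 9.83e-05) and PSMD9 did not pass (-0.18, adjusted p = 0.241). Of the core chaperones, PSMG4 rose from 21.7 ± 3.18 CPM (SD, n = 3) to 30.1, 31.7 and 31.1 CPM (log2 fold change 0.52 ± 0.10 SE, adjusted p = 0.000185) and PSMG2, which pairs with PSMG1 to start the alpha ring, was lower at 45.3, 52.9 and 48.9 against 62.3, 57.2 and 70.2 CPM (log2 fold change -0.37 ± 0.09 SE, adjusted p = 0.000862). Neither pair of groups overlapped. PSMG1 and PSMG3 did not pass. None of the 4 activators, which open the core without ubiquitin, passed (log2 fold changes -0.17 to 0.13), and the core inhibitor PSMF1 was lower, at 125, 103 and 105 against 133, 138 and 136 CPM (log2 fold change -0.29 ± 0.08 SE, adjusted p = 0.00298).

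The second comparison asked which proteasome genes responded to EPZ015666 in the resistant line. Of the 46 members 10 were higher, 14 lower and 22 did not pass, where 31.9% of all tested genes were higher and 30.5% lower. Their median log2 fold change was -0.04, beside 0.01 over all tested genes. In the cap 2 genes were higher and 7 lower of 17 (median -0.12), and in the constitutive core 3 were higher and 2 lower of 14 (median 0.04). Without overlap, 10 members lay above and 13 below the DMSO libraries, against 33.7% and 32.8% of all genes. Without the 12 members sharing exon length, 8 of 34 were higher and 8 lower. Past 1.5-fold stood 2 members in each direction, PSMB9 and PSMG2 up and PSMA2 and PSMD9 down, against 19.8% and 15.2% of all genes. PSMB9, also counted among the 10 higher members, passed the filter on low counts only through the treated libraries. PSMA2, counted among the 14 lower members, reached the cutoff in 2 DMSO-treated resistant libraries and 0 EPZ015666-treated ones. This comparison shares its DMSO-treated Pt-resistant libraries with the first, so opposite signs in both are not independent.

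Among cap genes, PSMC2 went from 467, 620.5 and 555 CPM under DMSO to 401, 390.3 and 444 CPM under EPZ015666, with no overlap (log2 fold change -0.41 ± 0.09 SE, adjusted p = 0.000497). It was the only ATPase that passed, and PSMC6 missed the threshold (-0.20, adjusted p = 0.0941), which it passed without Pt-resistant replicate 1 (log2 fold change -0.31, adjusted p = 0.00839) or EPZ015666-treated replicate 3 (log2 fold change -0.31, adjusted p = 0.0211). PSMD4 stood at 228, 215 and 202 and 166, 157 and 164 CPM (log2 fold change -0.41 ± 0.08 SE, adjusted p = 6.3e-05), and its treated libraries were all lower and within the naive range of 156 to 174 CPM. PSMD1 was lower by 0.31 on the log2 scale (log2 fold change -0.31 ± 0.07 SE, adjusted p = 0.000967).

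In the lid 4 of 8 genes were lower, namely PSMD6 (-0.31), PSMD8 (-0.30), PSMD7 (-0.29) and PSMD11 (-0.26), with adjusted p of 0.00129, 0.00172, 0.00229 and 0.00406. PSMD8 stood at 408, 435 and 401 CPM under DMSO and 353, 351 and 305 CPM under EPZ015666, without overlap. The lid gene PSMD12 and the base gene PSMD2 were the exceptions in direction. PSMD12 rose from 104, 112 and 102 to 137, 145 and 119.7 CPM, with every treated library higher (log2 fold change 0.34 ± 0.08 SE, adjusted p = 0.000947). PSMD2 rose from 440.2, 437 and 379 to 498, 503 and 481 CPM, also apart (log2 fold change 0.24 ± 0.08 SE, adjusted p = 0.0135), but not without Pt-resistant replicate 3 (log2 fold change 0.17, adjusted p = 0.112).

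The constitutive catalytic genes did not pass under EPZ015666. PSMB5 stood at 219, 192 and 239.8 CPM (log2 fold change 0.18 ± 0.09 SE, adjusted p = 0.0759), with 1 treated library inside the DMSO range, and passed only when that library, EPZ015666-treated replicate 2, was left out (log2 fold change 0.26, adjusted p = 0.0182). PSMB6 stood at 125, 114 and 109 CPM (log2 fold change 0.12 ± 0.08 SE, adjusted p = 0.196) and PSMB7 at 286, 256 and 292 CPM (log2 fold change 0.10 ± 0.08 SE, adjusted p = 0.297), both overlapping the DMSO libraries. The structural PSMB2, lower in resistant cells, stood at 250.3, 227 and 223 CPM, above all DMSO libraries (log2 fold change 0.41 ± 0.08 SE, adjusted p = 7.32e-05), and PSMB3 at 91.8, 81.6 and 109 CPM against 61.8, 80.6 and 73.6 CPM under DMSO (log2 fold change 0.39 ± 0.10 SE, adjusted p = 0.00239).

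In the alpha ring, PSMA5 was higher (log2 fold change 0.27 ± 0.09 SE, adjusted p = 0.0145) but not without Pt-resistant replicate 1 (log2 fold change 0.17, adjusted p = 0.105) or EPZ015666-treated replicate 3 (log2 fold change 0.23, adjusted p = 0.0727). PSMA1 was lower (log2 fold change -0.24 ± 0.08 SE, adjusted p = 0.0136), and its call was lost without EPZ015666-treated replicate 2 (log2 fold change -0.20, adjusted p = 0.0727). PSMA2 was lower on few counts (log2 fold change -1.20 ± 0.46 SE, adjusted p = 0.0276), without the call in DESeq2 and limma-voom (adjusted p = 0.123 and 0.0769), or when Pt-resistant replicate 2 (log2 fold change -1.02, adjusted p = 0.103) or 3 (log2 fold change -0.94, adjusted p = 0.137) or EPZ015666-treated replicate 1 (log2 fold change -1.13, adjusted p = 0.0808), 2 (log2 fold change -1.22, adjusted p = 0.0614) or 3 (log2 fold change -1.25, adjusted p = 0.0605) was left out. Of the groups compared, only the DMSO libraries, where PSMA2 was higher, reached the filter cutoff, so its call is not independent of the filter. The other 4 alpha ring genes, PSMA3, PSMA4, PSMA6 and PSMA7, had log2 fold changes between -0.10 and -0.01 and did not pass.

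The largest change among members above 10 CPM was in the chaperone PSMG2, which stood at 45.3, 52.9 and 48.9 CPM under DMSO and 86.5, 82.9 and 87 CPM under EPZ015666. The treated libraries were above naive cells too, and the fold over DMSO was 1.74 (log2 fold change 0.80 ± 0.09 SE, adjusted p = 2.53e-08). Its partner PSMG1 did not pass (-0.06, adjusted p = 0.488), and PSMG4 was lower (log2 fold change -0.38 ± 0.10 SE, adjusted p = 0.00298). PSMG3 missed the threshold (-0.27, adjusted p = 0.0504). It passed without any 1 of the 3 naive libraries, Pt-resistant replicate 3 or EPZ015666-treated replicate 1, the adjusted p then being between 0.0222 and 0.0457. The cap chaperones PSMD9 and PSMD5 were lower. PSMD9 stood at 12.7, 11.8 and 10.3 CPM under DMSO and 6.57, 9.02 and 7.09 CPM under EPZ015666 (log2 fold change -0.62 ± 0.14 SE, adjusted p = 0.000475), and PSMD5 at 89.5, 99.1 and 98.8 CPM, between its naive and DMSO-treated resistant levels (log2 fold change -0.31 ± 0.08 SE, adjusted p = 0.00132). In each, all treated libraries were below all DMSO ones.

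The activators divided by partner. PSME1 and PSME2 form together the interferon-induced PA28 ring, which favours peptides for MHC class I. PSME1 stood at 50.6, 51 and 50.3 CPM under DMSO and 76.6, 71.5 and 62.7 CPM under EPZ015666 (log2 fold change 0.47 ± 0.09 SE, adjusted p = 6.45e-05), and PSME2 at 47, 53.6 and 49.6 and 69.5, 61.3 and 61.8 CPM (log2 fold change 0.36 ± 0.09 SE, adjusted p = 0.000938). Treated libraries were the higher ones for both. PSME3, which forms a separate ring in the nucleus, was lower (log2 fold change -0.23 ± 0.07 SE, adjusted p = 0.00962), though not without Pt-resistant replicate 1 (log2 fold change -0.17, adjusted p = 0.0667). PSME4 did not pass (0.14, adjusted p = 0.13). The inhibitor PSMF1 was lower again, at 94, 94.3 and 92.1 CPM (log2 fold change -0.24 ± 0.08 SE, adjusted p = 0.0109), a call that was lost without Pt-resistant replicate 1 (log2 fold change -0.15, adjusted p = 0.121).

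Set against naive cells, EPZ015666-treated Pt-resistant cells had 27 members higher, 3 lower and 16 not passed, where 32.2% of all tested genes were higher and 31.2% lower. The median was 0.28, beside 0.00 over all genes, and 11 members were past 1.5-fold upward and 1, PSMD9, downward (18.8% and 17.5% of all genes). Without overlap lay 26 members above and 4 below (33.6% and 32.8%). This comparison shares its libraries with the others. Its higher members include PSMB9, which passed the filter only through the treated libraries. All 6 ATPases (median 0.52) and all 3 constitutive catalytic genes were higher, with PSMB5 at 0.91 ± 0.09 SE, PSMB7 at 0.79 ± 0.08 SE and PSMB6 at 0.27 ± 0.08 SE. PSMD12 (0.79), PSMD2 (0.68) and the alpha subunits PSMA6 (0.72) and PSMA5 (0.58) were also higher. Of the base and lid genes, 4 of 11 were higher, and PSMD4 (-0.03), PSMD1 (0.03), PSMD8 (0.05), PSMD6 (-0.12) and PSMD11 (-0.06) did not pass. The lower members were PSMD9 (-0.80 ± 0.14 SE), PSMF1 (-0.54 ± 0.08 SE) and PSMG3 (-0.35 ± 0.12 SE). The call of PSMG3 was lost without naive replicate 1 (log2 fold change -0.19, adjusted p = 0.168) or EPZ015666-treated replicate 2 (log2 fold change -0.31, adjusted p = 0.0529) or 3 (log2 fold change -0.31, adjusted p = 0.0561). That of PSMC2 (0.28) was lost without naive replicate 1 (log2 fold change 0.23, adjusted p = 0.0626) or EPZ015666-treated replicate 3 (log2 fold change 0.22, adjusted p = 0.071). Those of PSMA1 and PSMA3 (0.25 and 0.33) were lost without naive replicate 2 (log2 fold change 0.19, adjusted p = 0.0671 and log2 fold change 0.24, adjusted p = 0.0616), and also without EPZ015666-treated replicate 1 for PSMA1 (log2 fold change 0.21, adjusted p = 0.0566) and replicate 3 for PSMA3 (log2 fold change 0.25, adjusted p = 0.0805).

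Summed over genes, the 19S cap stood at 2617, 2618 and 2667 CPM in naive libraries, at 3474, 3845 and 3500.1 CPM in Pt-resistant ones and at 3259, 3218 and 3289.8 CPM under EPZ015666. The 3 groups did not overlap, and the treated libraries lay between the others. The constitutive core stood at 2372, 2164 and 2535, 2427, 2858 and 2584 and 2854, 2544 and 2928 CPM, where the groups overlapped. Within the core, the 3 catalytic genes summed to 372 ± 23.3 CPM in naive, 558 ± 22.5 in Pt-resistant and 611 ± 42.8 in treated cells, and the 4 structural beta genes to 949 ± 79.6, 879.8 ± 53.2 and 995 ± 70.0 (SD, n = 3). These sums are dominated by abundant members and carry no test.

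**Figure D3:**
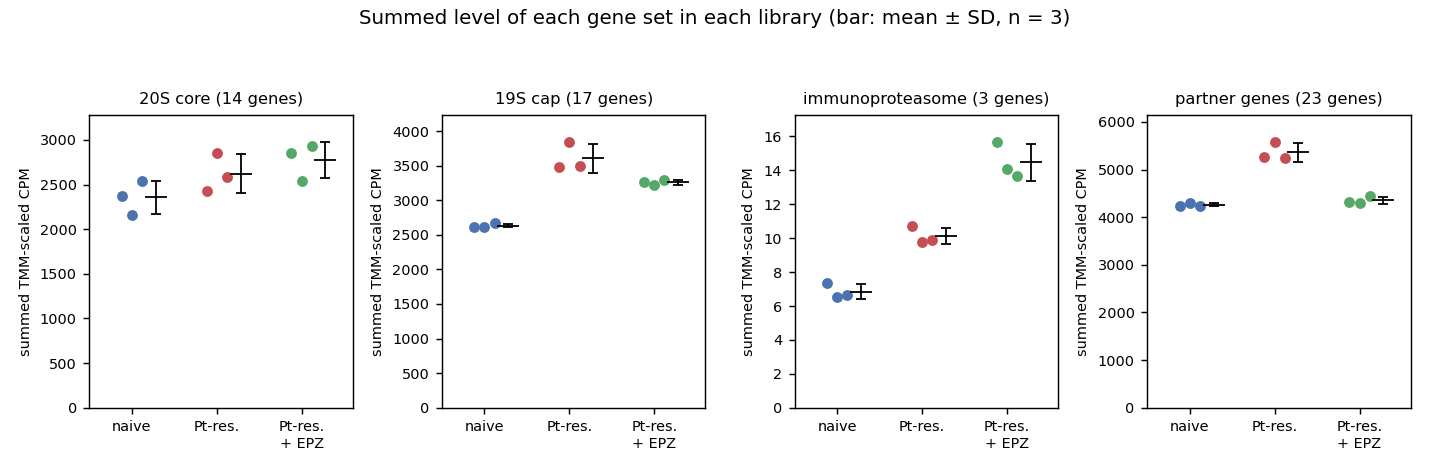
Summed level (y axis, TMM-scaled CPM, from 0) of the 20S core, the 19S cap, the immunoproteasome genes and the 23 partner genes in each of the 9 libraries (points, by group on the x axis), with the mean ± SD (n = 3) beside them. The 19S cap and the partner genes are highest in Pt-resistant cells under DMSO, and the immunoproteasome genes in the treated cells.

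The immunoproteasome genes were low in all groups. PSMB8, which takes the place of PSMB5, stood at 2.95, 2.47 and 3.46 CPM in naive, 4.99, 4.21 and 4.26 in Pt-resistant and 7.22, 7.01 and 5.9 in EPZ015666-treated libraries. The 3 groups were in that order without overlap, and PSMB8 was higher in Pt-resistant than naive cells (log2 fold change 0.59 ± 0.18 SE, adjusted p = 0.0078) and higher again under EPZ015666 (log2 fold change 0.58 ± 0.16 SE, adjusted p = 0.00315). PSMB10, which takes the place of PSMB7, stood at 3.92, 3.51 and 2.96, 5.05, 5.38 and 5.25 and 7.11, 5.34 and 5.66 CPM. It was higher in Pt-resistant cells (log2 fold change 0.59 ± 0.17 SE, adjusted p = 0.00534), while EPZ015666-treated and DMSO libraries overlapped (log2 fold change 0.21 ± 0.16 SE, adjusted p = 0.258).

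PSMB9, which takes the place of PSMB6, stood at 0.455, 0.55 and 0.252 CPM in the naive and 0.661, 0.213 and 0.416 CPM in the Pt-resistant libraries, which overlapped (log2 fold change 0.02 ± 0.50 SE, adjusted p = 0.978). Under EPZ015666 it stood at 1.36, 1.74 and 2.08 CPM, above every other library, a fold of 4.04 over DMSO. It rests on 127 counts in all 9 libraries and passed the filter only through its treated libraries. No edgeR p-value of this rise is therefore given, although PSMB9 is counted among the higher members. Its ratio to PSMB6, which does not use the filter, is compared below. Summed, the 3 genes made 6.85 ± 0.425 CPM in naive, 10.1 ± 0.49 in Pt-resistant and 14.5 ± 1.08 in treated cells (SD, n = 3), beside 611 ± 42.8 CPM for the constitutive catalytic genes in treated cells.

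**Figure D4:**
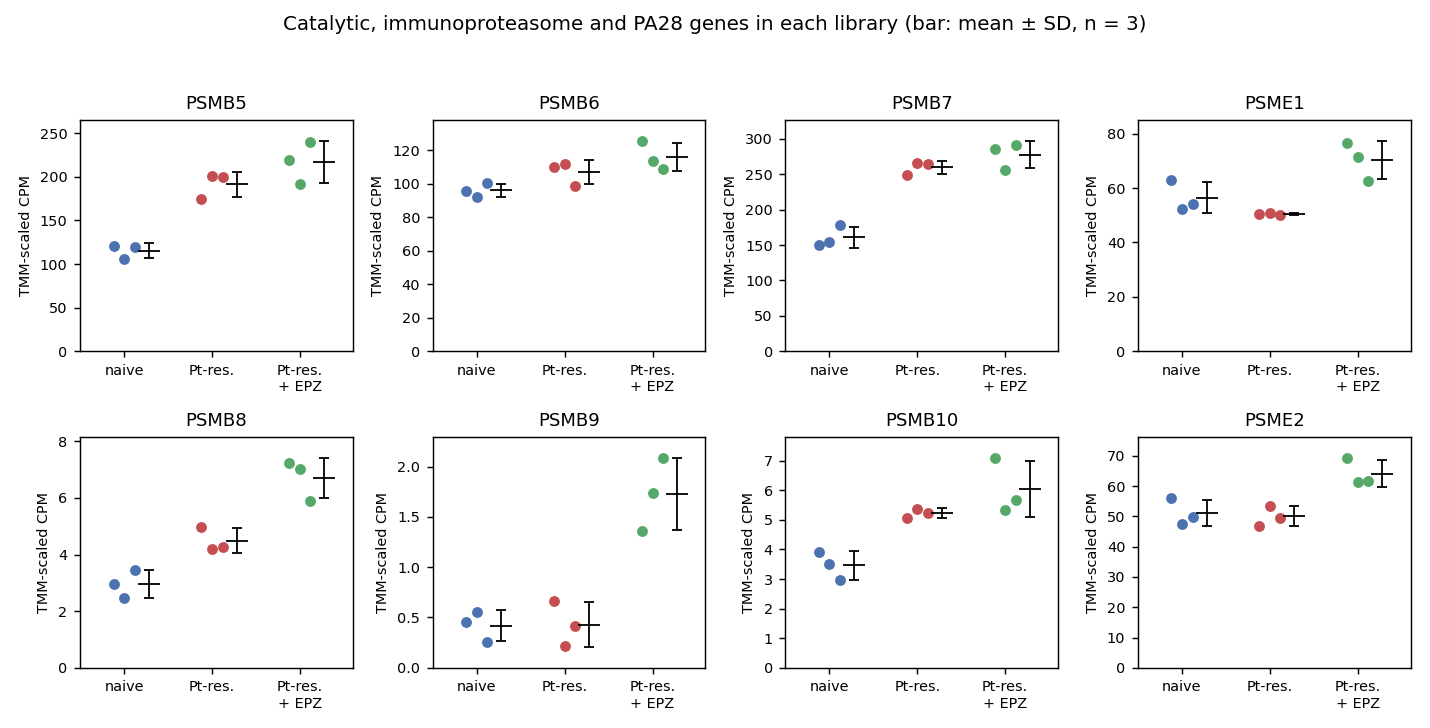
Level (y axis, TMM-scaled CPM, from 0, a separate scale for each gene) of the constitutive catalytic genes PSMB5, PSMB6 and PSMB7, the immunoproteasome genes PSMB8, PSMB9 and PSMB10, and PSME1 and PSME2 in each library (points, by group on the x axis), with the mean ± SD (n = 3) beside them. PSMB5 and PSMB7 step up between naive and Pt-resistant cells, PSMB9, PSME1 and PSME2 step up under EPZ015666, and PSMB8 rises at both steps.

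A count ratio within a library does not depend on scaling. The PSMB8 count was 2.44, 2.35 and 2.91% of the PSMB5 count in naive, 2.85, 2.1 and 2.14% in Pt-resistant and 3.29, 3.65 and 2.46% in EPZ015666-treated libraries, which overlapped. The PSMB9 count was 0.476, 0.597 and 0.252%, 0.6, 0.191 and 0.421% and 1.09, 1.53 and 1.92% of the PSMB6 count, with all treated libraries above all others. PSMB10 was 2.61, 2.28 and 1.66%, 2.03, 2.02 and 1.99% and 2.49, 2.09 and 1.94% of PSMB7. Between Pt-resistant and naive cells no ratio separated, with differences of -0.13 (PSMB8/PSMB5), -0.19 (PSMB9/PSMB6) and -0.09 (PSMB10/PSMB7) on the log2 scale and p of 0.5, 0.7 and 0.7 (two-sided exact permutation test, n = 3 per group). A shift of a ratio beyond the spread of the libraries was thus not detected between naive and resistant cells. Under EPZ015666 the differences from DMSO were 0.40, 2.01 and 0.10, with exact permutation p of 0.2, 0.1 and 0.5. With 3 against 3 the smallest p is 0.1, so the PSMB9/PSMB6 value is the lowest the design allows, and the adjusted p over the 9 ratios compared was 0.45.

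Immune cells use the immunoproteasome, so their markers were read beside these genes. Of 10 immune markers, 5 were tested, and the summed level was 10.7 to 13.2 CPM in naive, 16.4 to 22.6 in Pt-resistant and 25.3 to 29.4 in EPZ015666-treated libraries. Most of it was NCAM1, at 18.4 CPM in Pt-resistant and 19.9 in treated cells. PTPRC, the pan-leukocyte marker CD45, stood at 0.0601, 0 and 0.0519 CPM under DMSO and 1.01, 1.47 and 0.834 CPM under EPZ015666, and the monocyte marker CD14 at 0.12, 0.373 and 0.312 and 1.3, 1.27 and 1.13 CPM, with all treated libraries above the others. Like PSMB9, both passed the filter only through the treated libraries, so no test is given. CSF1R, a macrophage marker, averaged 0.841 CPM in naive cells, 0.2 CPM under DMSO and 2.44 CPM under EPZ015666. It was higher under EPZ015666 than under DMSO (log2 fold change 3.55 ± 0.41 SE, edgeR adjusted p = 7.23e-08). That fold rests on a DMSO level under the filter cutoff of 0.589 CPM and lower than in naive cells (log2 fold change -2.01, adjusted p = 0.00122). The T cell gene CD3D and the B cell gene MS4A1 were at 0 in all Pt-resistant libraries, treated or not. The part of these transcripts in the immunoproteasome values was not tested.

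Promoters of these interferon-linked genes are shown because 4 of them carry the same motif near the start site. RefSeq windows (GRCh38.p14, 250 bases before to 50 after the start) were at hand for 42 of the 48 members, and were searched on both strands. The interferon-stimulated response element, taken as GAAA, any 2 bases and GAAA, was in 7 of the 42, against 4.38% of 27305 genes. In 5 of the 7, PSMB8, PSMB10, PSME1, PSME2 and PSMG4, the 2 free bases were GC, a form found in 34 of 27305 genes (0.125%) and searched for after the promoters were seen. Capitals mark the match below, on the strand of the gene, and matches to the opposite strand begin with TTTC.
PSMB10 (chr16:67936851-67936970, minus strand): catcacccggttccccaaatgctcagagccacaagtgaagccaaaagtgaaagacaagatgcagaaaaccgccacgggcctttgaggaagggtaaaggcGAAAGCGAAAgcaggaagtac
PSMB8 (chr6:32844042-32844167, minus strand): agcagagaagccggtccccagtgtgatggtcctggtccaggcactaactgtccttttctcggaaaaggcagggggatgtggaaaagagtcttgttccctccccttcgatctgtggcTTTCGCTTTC
PSME1 (chr14:24136074-24136208, plus strand): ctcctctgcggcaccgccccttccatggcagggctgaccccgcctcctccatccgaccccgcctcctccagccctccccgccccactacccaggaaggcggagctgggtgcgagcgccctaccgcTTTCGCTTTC
PSME2 (chr14:24146611-24146730, minus strand): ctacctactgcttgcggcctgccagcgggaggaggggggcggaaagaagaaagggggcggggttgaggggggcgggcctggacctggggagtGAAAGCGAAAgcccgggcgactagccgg

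Among the 7 members with the element, 3 were higher and 1 lower under EPZ015666, against 7 higher and 12 lower of the 33 tested members with a window and no match. Of all tested genes, 31.9% were higher and 30.5% lower. The higher members with the element were PSMB8 (0.58), PSME1 (0.47) and PSME2 (0.36), and the lower one was PSMG4 (-0.38). PSMB10 (0.21), PSMB4 (0.15) and PSMA4 (-0.03) did not pass. The PSMB9 window holds no match. The STAT site TTCNNNGAA was in 8 of 42 members, against 9.38% of genes, and PSMB8 was the only immunoproteasome gene with it.

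Letters TGACNNNGC, the core of the antioxidant response element, which NRF2 and NRF1 are known to bind, were in 15 of the 42 members, against 16.1% of genes. Of the 15 with it, 6 were higher and 1 lower in Pt-resistant cells (median log2 fold change 0.10), and of the 25 tested without it, 20 were higher and 3 lower (median 0.50). Of all tested genes, 29.8% were higher and 29.4% lower. Under EPZ015666, 6 of the 15 were higher and 3 lower (median 0.02), and of the 25 without it 4 were higher and 10 lower (median -0.07). There, 31.9% of all tested genes were higher and 30.5% lower. The chaperones PSMD5 and PSMD9 are shown because both carry it and both were lower under EPZ015666, while PSMD5 alone of them was higher in resistant cells. Both were picked for that direction and do not stand for the 15 members. Capitals mark the matches. PSMD9 has a pair of them, the upstream one on the opposite strand.
PSMD5 (chr9:120842923-120843066, minus strand): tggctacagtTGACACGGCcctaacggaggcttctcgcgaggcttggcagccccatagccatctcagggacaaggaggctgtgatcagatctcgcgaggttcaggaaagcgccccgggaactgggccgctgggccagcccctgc
PSMD9 (chr12:121888631-121888789, plus strand): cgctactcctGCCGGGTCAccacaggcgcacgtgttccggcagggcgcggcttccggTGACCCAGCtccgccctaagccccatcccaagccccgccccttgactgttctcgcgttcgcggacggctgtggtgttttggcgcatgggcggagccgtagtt

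Genes that work with the proteasome were read from a list of 23 partners, of which all were tested. In Pt-resistant cells 14 were higher and 2 lower (median log2 fold change 0.32), against 29.8% and 29.4% of all tested genes. Under EPZ015666 0 were higher and 14 lower (median -0.37), against 31.9% and 30.5%. The medians over all genes were near 0. The list was chosen with earlier results of these data known, so its counts are not independent of them. NFE2L1, whose product drives subunit genes, stood at 315, 328 and 308 CPM in naive, 544, 572 and 559 in Pt-resistant and 277, 353 and 285 in treated libraries. It was higher in resistant cells (log2 fold change 0.82 ± 0.09 SE, adjusted p = 1.73e-08) and lower under EPZ015666 (log2 fold change -0.87 ± 0.09 SE, adjusted p = 5.51e-09), where its libraries lay on both sides of the naive range. The study chose NFE2L1 as a PRMT5 target partly on these samples, so its direction is not independent evidence.

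Of the factors that release active NRF1, the deglycosylase NGLY1 and the protease DDI2 did not pass in resistant cells (-0.17 and -0.07) and were lower under EPZ015666 (-0.76 and -0.62, adjusted p = 1.33e-07 and 5.76e-06). DDI2 stood at 40.6, 37.7 and 41.5 CPM under DMSO and 22.1, 28.7 and 27.3 CPM under EPZ015666, without overlap. AKIRIN2, which carries proteasomes into the nucleus, went from 46.1, 51.8 and 43.5 to 84.2, 73.2 and 71 CPM in resistant cells (log2 fold change 0.69 ± 0.09 SE, adjusted p = 4.31e-07) and to 50.1, 45.3 and 46 CPM under EPZ015666 (log2 fold change -0.69 ± 0.09 SE, adjusted p = 3.99e-07). Treated libraries thus were back in the naive range.

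ECPAS, an adaptor of the 26S particle, was also higher in resistant cells and lower under EPZ015666 (0.71 and -0.77). So were ZFAND5, a proteasome activator (0.85 and -0.38), and the shuttle factor UBQLN1 (0.71 and -0.44). Treated cells did not differ from naive cells in ECPAS (-0.06, edgeR adjusted p = 0.549). They stayed above naive cells in ZFAND5 (0.47, adjusted p = 8.15e-06) and UBQLN1 (0.27, adjusted p = 0.00294). UBQLN4 and the ubiquitin-activating enzyme UBA1 were lower in resistant cells (-0.24 and -0.22), calls that were lost without Pt-resistant replicate 2 for UBQLN4 (log2 fold change -0.19, adjusted p = 0.0739) and without naive replicate 1 for UBA1 (log2 fold change -0.19, adjusted p = 0.0532). Against naive cells, treated cells had 5 partners higher and 3 lower (median 0.02), against 32.2% and 31.2% of all tested genes. Some subunits carry no PSM symbol. The ubiquitin receptor ADRM1 was at -0.00 and the small lid subunit SEM1 at 0.02 in resistant against naive cells (adjusted p = 0.99 and 0.867) and did not pass, whereas POMP, the core maturation factor, was higher (0.36, adjusted p = 0.0123) with overlapping libraries. The POMP call was lost without naive replicate 2 (log2 fold change 0.27, adjusted p = 0.0508) or Pt-resistant replicate 2 (log2 fold change 0.21, adjusted p = 0.132).

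A list of 12 interferon factors and genes of class I peptide supply had 10 tested genes, as TAP2 and IRF9 fell under the filter. In Pt-resistant cells 3 were higher and 0 lower (median 0.27), where 29.8% of all tested genes were higher and 29.4% lower. Under EPZ015666 8 were higher and 2 lower (median 0.65), where these shares were 31.9% and 30.5%. This list too was chosen with earlier results of these data known. TAP1, the peptide transporter subunit, whose gene neighbours PSMB9, stood at 1.38, 1.86 and 1.87 CPM under DMSO and 2.78, 2.74 and 2.68 CPM under EPZ015666 (log2 fold change 0.67 ± 0.23 SE, adjusted p = 0.0145). Its call was lost in DESeq2 (log2 fold change 0.68, adjusted p = 0.0751) and without Pt-resistant replicate 1 (log2 fold change 0.55, adjusted p = 0.0669). IRF1, an interferon-induced activator of PSMB9 and TAP1, stood at 26.6, 32.8 and 25.5 and 46.3, 48 and 41.6 CPM (log2 fold change 0.68 ± 0.10 SE, adjusted p = 2.7e-06). In both, the treated libraries lay above the others. The largest rises were those of the trimming peptidase ERAP2 (2.44) and the loading factor TAPBP (1.08), followed by IRF2 (0.72). STAT2 (-0.50) and ERAP1 (-0.36) were lower (adjusted p = 1.32e-05 and 0.00054). B2M, the class I light chain, was higher at both steps (0.78 in resistant cells and 0.41 under EPZ015666).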

How the data were processed

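RNA from 9 libraries was analysed. Cells were seeded in wells in triplicate, and libraries were made with a directional kit, which marks the strand. After a FastQC check, the authors mapped reads with STAR and took its gene counts, and the matrix they deposited holds raw counts. For these counts the genome build, annotation, strand column and versions were not given in the sources used. STAR drops multimapping reads and reads that fall in more than 1 gene.

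Samples were grouped by their labels into 3 groups of 3. The members and gene lists were chosen with earlier results of these data known. Tests were run with edgeR 4.0.16 in R 4.3.3 (filterByExpr at a minimum count of 10, TMM scaling, and a quasi-likelihood fit by group to the 9 libraries). The filter left 14630 genes, and p-values were adjusted by Benjamini-Hochberg over all of them at a threshold of 0.05. The biological coefficient of variation was 7.66%. Total counts of 14320929 to 19114811 per library set the precision. Standard errors are the size of the log2 fold change over the root of the F statistic. Medians and counts describe lists, without a set test. Exon length and sharing come from GENCODE 29 by stable ID (48 of 48 members matched), and promoters from RefSeq on GRCh38.p14.

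All immunoproteasome and constitutive catalytic genes were described. In other subcomplexes the rule took up to 3 passing members with the largest change per direction and comparison, and in the lists of partner and interferon genes up to 5, and every member was open to naming. Members that the rule did not take were named after their values were seen. Alternatives were RLE scaling, library size alone, DESeq2 1.42.0 (the tool of the study), limma-voom (limma 3.58.1), other filters, fits restricted to the compared groups, a block for the replicate number, a 1.5-fold minimum and each library left out. Same-numbered libraries of different groups did not deviate together (r = -0.0758 to 0.0995 over genes). The fit was tested on simulated data. Single values of some genes in the marker and interferon lists are not reported here.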

Additional observations from a re-analysis of the deposited data

How the results depend on the processing

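Of the calls on proteasome genes, 24 of 32 in Pt-resistant against naive cells, 18 of 24 in EPZ015666 against DMSO and 26 of 30 in treated against naive cells held in every other scaling, tool, filter and fit tried and with each library left out, and no direction reversed. A 1.5-fold minimum left 12 members higher and 0 lower in Pt-resistant cells (14.3% and 16.4% of all genes, 2096 and 2393), 2 higher and 2 lower under EPZ015666 (of all genes 2902 and 2225), and 11 higher and 1 lower in treated against naive cells (of all genes 2754 and 2563). Leaving out single libraries gave 24 to 28 members higher and 2 to 5 lower in Pt-resistant cells, 9 to 11 and 12 to 15 under EPZ015666, and 25 to 28 and 2 to 4 in treated against naive cells. Scaling by library size alone gave 5 lower members in place of 3 in the last comparison, adding PSMA7 and PSMD6. Without members that share over 10% of exon length, an alternative chosen after seeing the data, 18 members were higher in Pt-resistant cells and 8 lower under EPZ015666, out of 34. Without the 6 members under 10 CPM, also chosen later, these were 23 and 13 out of 40. With the replicate number as a block, 29 members were higher and 4 lower in Pt-resistant cells, and 10 higher and 15 lower under EPZ015666. The block added PSMD3 and PSMG3, but the numbers did not pair the libraries. Limits are the 3 wells per group, a single resistant derivative, few counts for PSMB9 and PSMA2, and genes that overlap a neighbour, whose counts can lose reads.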

Other observations

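Genes that carry a member's name without being a subunit were read too. PSMG3-AS1, an RNA antisense to PSMG3, stood at 1.65, 2.2 and 2.08 CPM in naive, 5.35, 5.86 and 4.99 in Pt-resistant and 0.829, 0.869 and 1.61 in EPZ015666-treated libraries. It was higher in resistant cells (log2 fold change 1.46 ± 0.22 SE, adjusted p = 3.73e-06) and lower under EPZ015666 (log2 fold change -2.28 ± 0.24 SE, adjusted p = 1.7e-08), while PSMG3 itself did not pass in either comparison (-0.08 and -0.27). PSMA3-AS1, antisense to PSMA3, was at 0.44 and -0.44 on the log2 scale in the same comparisons (adjusted p = 0.0103 and 0.00931), beside 0.34 and -0.01 for PSMA3. The strand setting of the counts is not given, so sense and antisense reads cannot be told apart here.

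The pseudogene PSMC2P1 was at 0.82 and -0.40, beside 0.69 and -0.41 for its parent PSMC2. All pseudogenes of members together held 0.156% to 0.253% of the members' counts. The share of counts from mitochondrial mRNAs was 7.12% ± 1.0 in naive, 4.80% ± 0.367 in Pt-resistant and 7.37% ± 1.04 in treated libraries (SD, n = 3), and its part in the comparisons was not tested. Among the 36 members above 50 CPM, the median coefficient of variation between wells was 7.05%, 6.72% and 6.33% in the 3 groups, beside 6.30%, 6.10% and 5.58% over all genes above that level.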
